A study of Ramazzottius varieornatus with 48 samples.

Results

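The peroxidase gene g12777 of the tardigrade Ramazzottius varieornatus and its relatives g2856, g779, g243, g244, g245 and g246 are described here through their transcripts g12777.t1, g2856.t1, g779.t1, g243.t1, g244.t1, g245.t1 and g246.t1. They were taken by identifier, as the copies of this family that the study cloned, and are 7 of the 14532 transcripts listed. The study reached the family through g2856, listed among genes higher after both UVC and drying, and chose g12777 for steady high expression after UVC with induction on slow drying. The cloned relatives were picked for high expression in this UVC experiment and a change on drying. High levels of the members, steadiness of g12777 and higher values of g2856 after UVC are therefore no independent finding. All 7 of 7 passed the filter on low values, a mean of at least 1 TPM, as did 12088 transcripts in all. The members g243 to g246 carry consecutive gene numbers and are called the run below. The other 3, g12777, g2856 and g779, have numbers far apart and are called the dispersed copies. This label refers only to their gene numbers among the members taken here. Whether any of them lies beside a copy outside this set was not checked. By the study's count most copies of the family in this genome are not among these 7, and those were not analysed here. The family's sum, shares and span of values below are therefore those of the 7 members, not of the whole family.

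The animals were whole tardigrades of the strain YOKOZUNA-1, kept at 22 °C and irradiated with UVC from a lamp giving 0.54 mW/cm2 as labelled, and each RNA-seq library was made from 30 animals. In the Short course animals were taken hourly from 1 to 6 h after UVC and again at 9 and 12 h. Sampling of the Long course was at 12, 18 and 24 h and then at 36, 48 and 72 h. Each course had its own non-exposed animals, and every one of the 16 groups had 3 replicate libraries, 48 in all. Non-exposed animals were collected only at the start, and algae were supplied during the Long course, so exposure, time in culture and feeding cannot be told apart. Expression was given as TPM, the share of a library's transcripts that belongs to one transcript, corrected for length and scaled to a total of 1000000.

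The g12777 protein is described by the study as a manganese-dependent peroxidase without heme that lies mainly in the Golgi apparatus, and its family is known only from tardigrades. Peroxidases remove hydrogen peroxide by passing its oxidizing power to another molecule. UV light produces such reactive oxygen in cells besides damaging DNA, and drying does so too, which is why antioxidant enzymes are studied in animals that survive desiccation. The study calls the whole family peroxidases and found the cloned relatives mainly in the Golgi apparatus too, while the enzyme activity was measured on g12777.

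TPM keeps no record of read number, so depth cannot be read from it. The study lists sequencing statistics of its libraries, which were not used here. As a stand-in, the 7238 transcripts with a mean of at least 20 TPM were checked for values of 0. They numbered 8 to 150 in 40 libraries and more than 150 in the other 8, with 792 in Long 24 h replicate 1, 386 in Short 4 h replicate 3, 297 in Short 5 h replicate 2, 257 in Long 12 h replicate 2, 203 in Long 18 h replicate 1 and 163 to 255 in the 3 non-exposed Long libraries. With the 5 exposed libraries of these left out, the counts of members called that are given below stayed at 4 of 56 in Short and went from 0 to 5 of 42 in Long.

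All 7 members were detected in all 48 libraries, at very different levels. The member g244 was the most abundant, with a mean of 874 TPM ± 266 (SD, n = 48), which placed it 149th among all transcripts by mean TPM. Next came g246 with 297 TPM ± 104, g12777 with 252 TPM ± 108 and g779 with 250 TPM ± 90.1, and these 3 means lay within 1 SD of each other. The dispersed copy g2856 followed at 190 TPM ± 89.3 and g245 at 174 TPM ± 55.3. The lowest member was g243 at 97.5 TPM ± 51.5, still above 86.7% of all transcripts. Levels of different members can be set beside each other because TPM is corrected for length, but reads that match several copies are divided between them by estimation. The study also reports that g2856 was among family genes mis-predicted in its gene set. The level, rank and share of g2856 may therefore rest on a wrong length, which was not checked here.

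Within single libraries the order of the members was steady at the top, and at the bottom in the Short course. The transcript g244 was the highest member in 45 of 48 libraries (38 of the 40 with few abundant transcripts at 0) and above g243, g245, g12777, g2856 and g779 in all 48. The 3 exceptions were Long 24 h replicate 1, Long 36 h replicate 2 and Long 72 h replicate 1, where g246 stood above g244. The lowest member was g243 in 35 of 48 libraries, 24 of 27 in Short and 11 of 21 in Long, g2856 in 7, g12777 in 3, g245 in 2 and g779 in 1. In the middle the order changed from library to library, with g12777 above g779 in 23 libraries and below it in 25. Similarly, g246 exceeded g12777 in 28 libraries and g779 in 26, whereas it exceeded g2856 in 47.

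**Figure D1:**
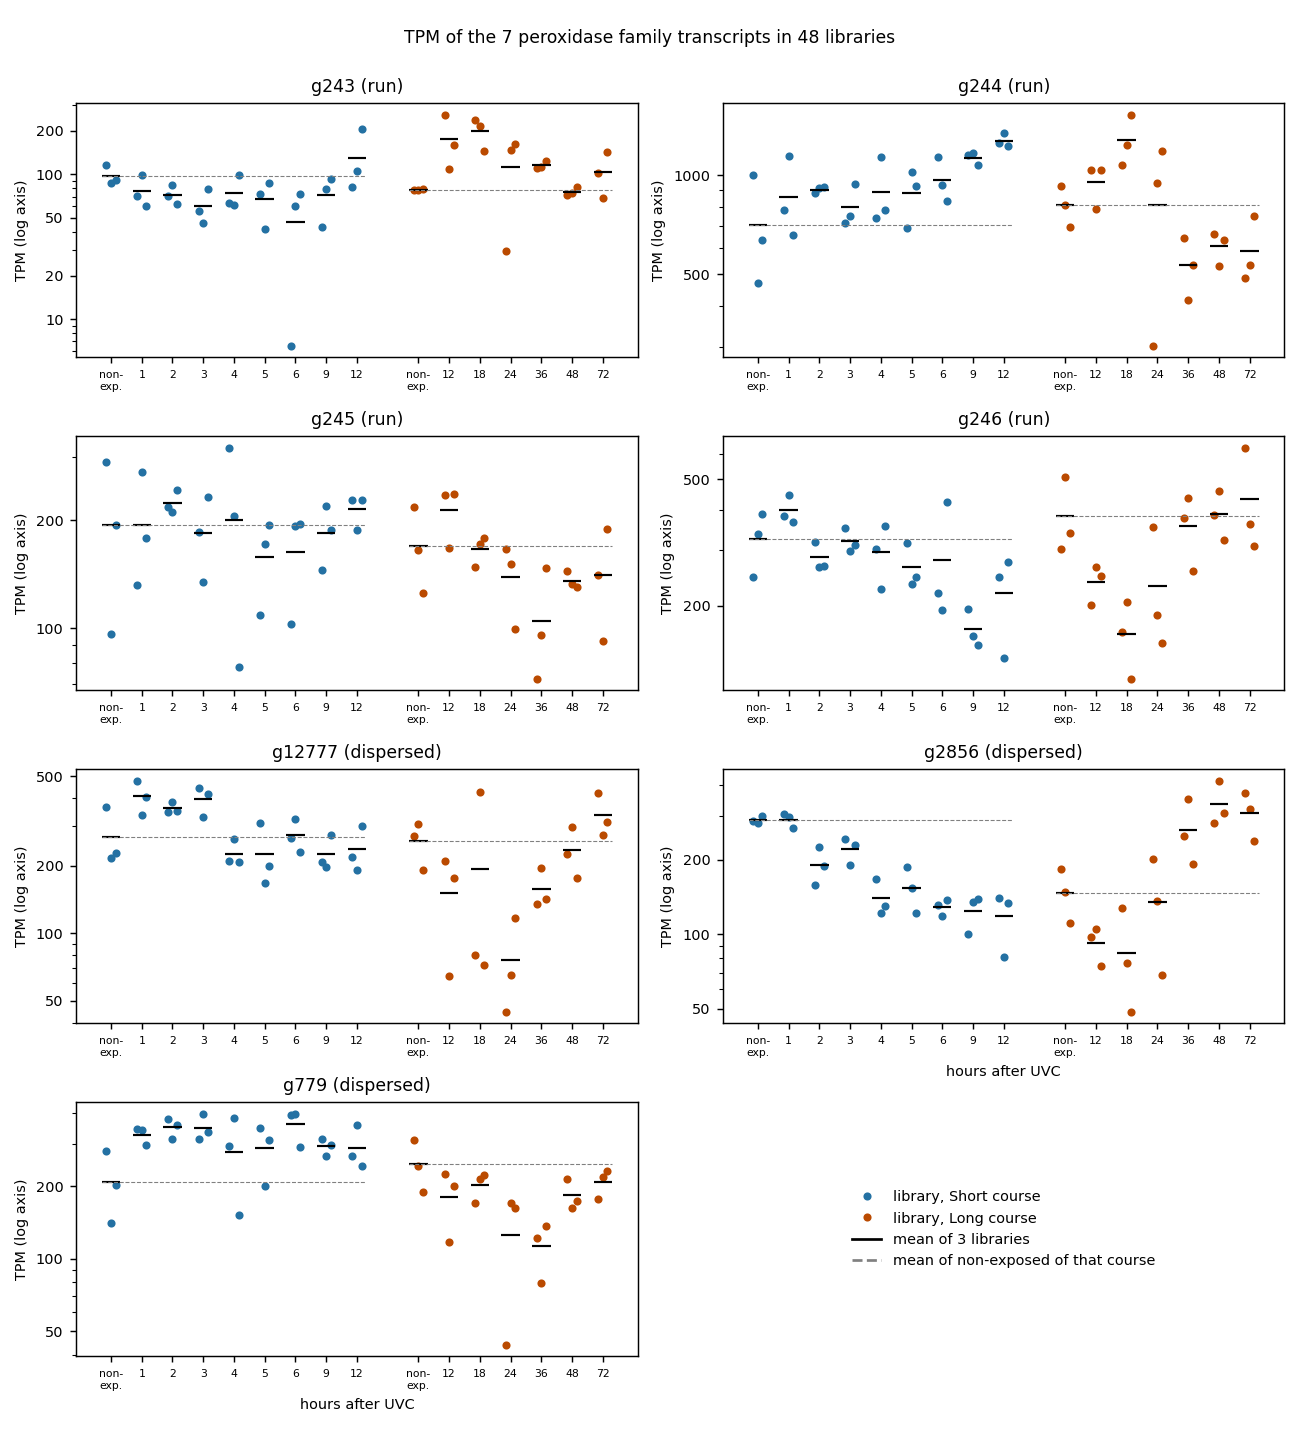
TPM (log axis) of each member in every library, by group, with the Short course in blue and the Long course in orange; black bars are means of 3 libraries and dashed lines the mean of the non-exposed libraries of that course. Group means of g2856 go from 290 to 119 TPM over the Short course and those of g244 from 704 to 1273 TPM.

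The 7 transcripts together took 2134 TPM ± 329 (SD, n = 48). The lowest sum was 1141 TPM in Long 24 h replicate 1 and the highest 2933 TPM in Short 1 h replicate 2. Group means ran from 1629 TPM ± 428 at Long 24 h to 2555 TPM ± 354 at Short 1 h (n = 3 each). The non-exposed libraries of the courses had nearly the same sum, 2087 TPM ± 480 in Short and 2094 TPM ± 317 in Long.

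As a share of the summed TPM of the 7 members, g244 held 41.1% ± 8.11 (SD, n = 27) in the Short course and 40.1% ± 12.2 (n = 21) in the Long course. In non-exposed Short animals its share was 32.9% ± 5.21, and at 9 h and 12 h it was 51.4% ± 2.57 and 51.4% ± 4.40. Among Long animals it was 38.9% ± 2.57 without exposure, 56.1% ± 8.97 at 18 h and 28.0% ± 6.86 at 72 h. The widest range of any member was therefore that of g244, from 20.8% in Long 72 h replicate 1 to 66.0% in Long 18 h replicate 3. Shares are given with no test, since a rise of one member lowers the shares of all others.

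The share of g246 ran the other way. It was 16.4% ± 6.04 in non-exposed Short animals and 7.70% ± 1.203 at Short 9 h. Among Long animals it was 18.4% ± 4.78 without exposure, 7.14% ± 1.78 at 18 h and 21.6% ± 4.54 at 36 h. The share of g2856 was 14.4% ± 3.09 in non-exposed Short animals and 4.76% ± 1.24 at 12 h, and in the Long course 6.99% ± 0.888 without exposure, 3.83% ± 2.24 at 18 h and 17.1% ± 3.01 at 48 h. Both members were thus at their smallest share of the Long course at 18 h, where g244 was at its largest.

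The group means of the remaining members' shares spanned narrower ranges. The share of g12777 averaged 12.8% ± 3.27 in Short and 9.87% ± 4.57 in Long, with its highest group mean at Short 3 h, 16.98% ± 2.02, and its lowest at Long 24 h, 4.53% ± 1.32. The transcript g779 held 13.4% ± 2.82 in Short and 8.98% ± 2.22 in Long. The smallest shares were those of g245, 8.35% ± 2.23 and 7.90% ± 2.43, and of g243, 3.43% ± 1.40 and 6.20% ± 2.61. For g243 the larger Long value came from 12 to 36 h, where its group means lay between 6.35% and 8.85%.

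**Figure D2:**
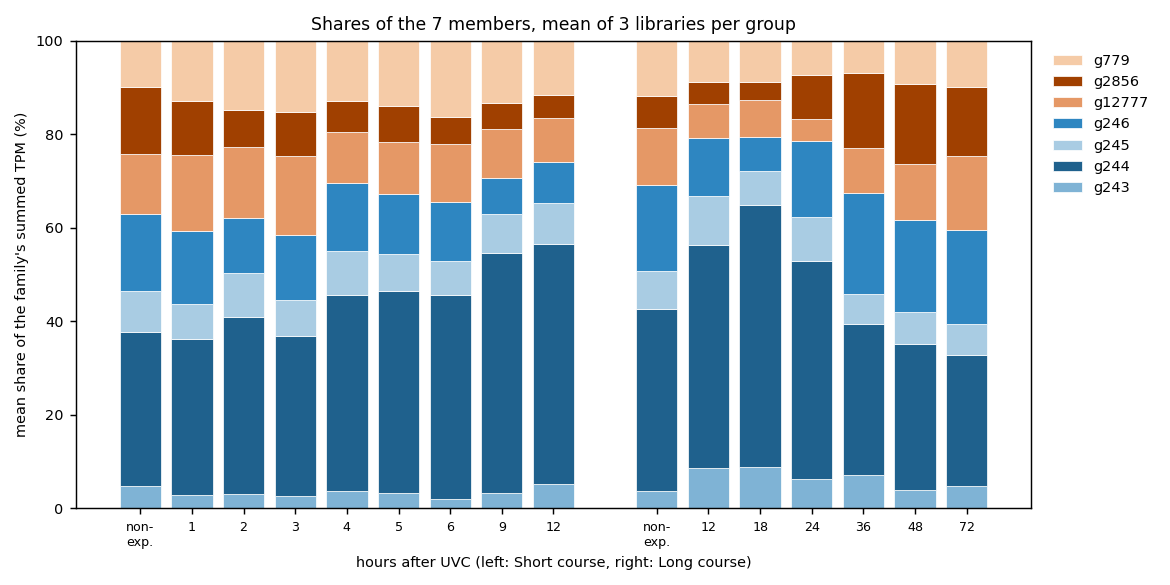
Mean share (%) of the family's summed TPM held by each member in each group of 3 libraries, Short course on the left and Long course on the right; blues are g243 to g246 and browns g12777, g2856 and g779. The blue part, g243 to g246, is 63.0% in non-exposed and 74.1% in 12 h Short animals, and 79.4% at Long 18 h against 59.6% at Long 72 h.

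Taken as a block, the run g243 to g246 held 65.6% ± 6.11 of the 7 members' TPM in Short and 70.7% ± 8.73 in Long. The lowest value was 54.8% in Short 1 h replicate 1 and the highest 85.1% in Long 18 h replicate 3. The run thus held the majority of the 7 members' TPM in every library. This majority rested largely on g244, and the run has 4 of the 7 members. With g244 left out of both run and sum, the run's mean share was 41.6% in Short and 51.7% in Long. The share was 63.0% ± 1.90 in non-exposed Short animals, 58.4% ± 2.61 at 3 h, 69.6% ± 2.83 at 4 h and 74.1% ± 0.289 at 12 h. In Long animals it was 69.1% ± 2.51 without exposure, 79.2% ± 2.95 at 12 h, 79.4% ± 6.82 at 18 h, 78.7% ± 3.82 at 24 h and 59.6% ± 3.92 at 72 h. Over the Long course the summed TPM of the dispersed copies went from 652 ± 143 without exposure to 337 ± 42.1 at 24 h and 856 ± 102 at 72 h. The summed TPM of the run was 1442 ± 179 without exposure, 1580 ± 217 at 12 h, 1809 ± 171 at 18 h and 1267 ± 184 at 72 h. At 24 h it was 851, 1429 and 1596 TPM in the 3 libraries, the lowest being replicate 1.

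The dispersed copy g2856 gave the clearest change over time. In the Short course its TPM was 287, 281 and 302 in the 3 non-exposed libraries and 306, 298 and 269 at 1 h. It was 168, 122 and 130 at 4 h, 132, 118 and 138 at 6 h, 100, 135 and 140 at 9 h, and 141, 81.1 and 134 at 12 h. From 2 h on, every Short library after UVC lay below every non-exposed Short library. Such separation of groups is described here and below with no test and no share over all transcripts beside it. With 3 libraries a group it can arise without a change. The highest library from 4 h on was Short 5 h replicate 1 with 187 TPM.

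These falls were tested with limma, a linear model on log2(TPM + 1) with Benjamini-Hochberg adjustment over the 12088 transcripts, and a call needed an adjusted p under 0.05 and a change of at least 2-fold. The transcript g2856 fell at 4 h, with a log2 change of -1.06 ± 0.21 (SE, adjusted p = 0.00698), and at 6 h, with -1.16 ± 0.21 (adjusted p = 0.00241). It also fell at 9 h, with -1.23 ± 0.21 (adjusted p = 0.00115), and at 12 h, with -1.32 ± 0.21 (adjusted p = 0.000605). At 12 h the mean was 119 TPM against 290 TPM, 2.45-fold lower. The value at 5 h, -0.93 ± 0.21 (adjusted p = 0.0142), passed the p but not the fold, and the values at 2 h and 3 h, -0.61 and -0.40, passed neither. When each time point was fitted alone with the non-exposed libraries, the falls at 4 h (adjusted p = 0.164) and 12 h (adjusted p = 0.0587) no longer passed, while those at 6 h and 9 h did.

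Long animals started with less g2856, at 184, 148 and 111 TPM in the non-exposed libraries. It was 97.7, 105 and 74.5 at 12 h and 128, 76.9 and 48.6 at 18 h. Thereafter it stood at 249, 352 and 193 TPM at 36 h, 281, 419 and 310 at 48 h, and 373, 321 and 238 at 72 h. All 9 libraries from 36 h on lay above all 3 non-exposed Long libraries, whereas those at 12 h lay below them. No single time point passed the test: the log2 changes were 1.19 ± 0.38 at 48 h (adjusted p = 0.0739) and 1.08 ± 0.38 at 72 h (adjusted p = 0.0764). In a limma fit with the replicate number as a block, both passed (adjusted p = 0.0273 and 0.0258), but the labels do not say that a number marks a lot. The mean at 48 h was 2.28-fold the non-exposed mean. Without Long 24 h replicate 1, 1 of the libraries named above, the adjusted p values were 0.0378 and 0.0427 and both passed. Each passed in 2 of 21 limma fits with 1 Long library left out, with adjusted p up to 0.226 at 48 h and 0.244 at 72 h.

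Over all members, 4 of 56 comparisons with Short non-exposed animals were called, all of g2856 and all lower. By time point the members called were 0 of 7 at 1, 2, 3 and 5 h and 1 of 7 at 4, 6, 9 and 12 h. The same calls took in 1.16%, 0.778% and 0.778% of all transcripts tested at 1, 2 and 3 h, then 1.82%, 3.04% and 2.49% at 4, 5 and 6 h, and 3.15% and 2.90% at 9 and 12 h. Of the 42 Long comparisons 0 were called by limma, and 12 of 42 had an unadjusted p under 0.05. There the share of all transcripts called was 0.811%, 0.645% and 0.190% at 12, 18 and 24 h, and 1.39%, 5.12% and 10.6% at 36, 48 and 72 h. The calls of members all came from g2856. The median log2 change over the 7 members was 0.32 at Short 1 h beside -0.28 over all transcripts, and -0.62 at Long 36 h beside -0.01. The Short count is 7 of 56 without Short non-exposed replicate 1, when g244 at 9 h and 12 h and g246 at 9 h also passed, and the Long count is 5 of 42 without Long 24 h replicate 1 and 2 of 42 without Long 24 h replicate 3.

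**Figure D3:**
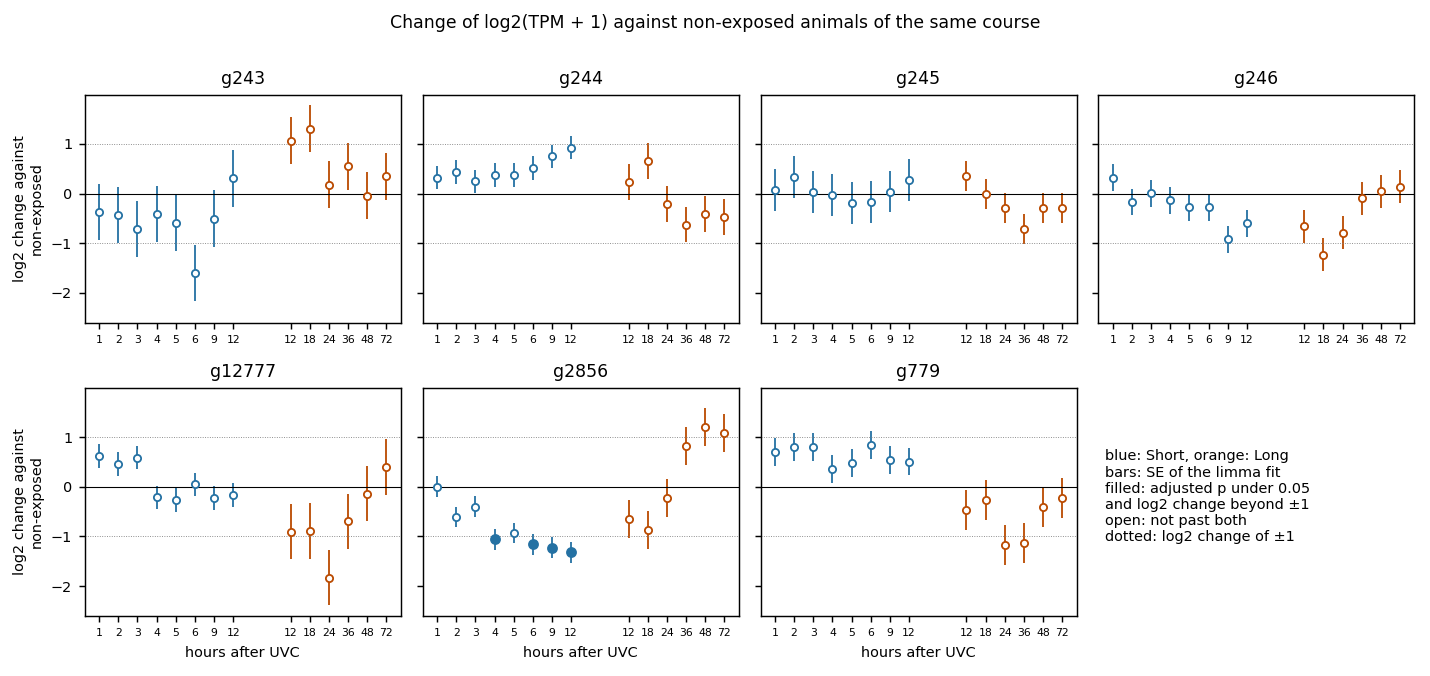
Change of log2(TPM + 1) against the non-exposed libraries of the same course, by hours after UVC, for each member; points are limma estimates and bars their SE, blue for Short and orange for Long, and filled points passed both thresholds. Filled points occur for g2856 at 4, 6, 9 and 12 h and for no other member.

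The most abundant member, g244, had higher values late in the Short course. Its TPM was 1004, 471 and 636 in non-exposed libraries, 1149, 1163 and 1074 at 9 h and 1254, 1339 and 1227 at 12 h, so that both later groups lay above all 3 non-exposed libraries. The log2 change at 12 h was 0.92 ± 0.24 (limma, adjusted p = 0.0277), below the 2-fold threshold, and at 9 h it was 0.75 ± 0.24 (adjusted p = 0.0783). Long libraries of g244 stood at 928, 812 and 694 TPM without exposure and 1077, 1238 and 1526 at 18 h. It was 645, 416 and 534 at 36 h. These Long values had log2 changes of 0.65 ± 0.36 (adjusted p = 0.417) and -0.62 ± 0.36 (adjusted p = 0.401).

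The run member g246 had lower values where those of g244 were high. In Short libraries it was 245.4, 337 and 388 TPM without exposure and 195, 160 and 151 TPM at 9 h, with no overlap between the groups and a log2 change of -0.92 ± 0.27 (limma, adjusted p = 0.0564). In Long libraries it was 301, 509 and 338 TPM without exposure and 166, 205 and 118 TPM at 18 h, again without overlap. The log2 change at 18 h was -1.23 ± 0.34 (adjusted p = 0.0985, and 0.0312 without Long 24 h replicate 1). It passed in 1 of 21 limma fits with 1 Long library left out, with adjusted p up to 0.301. By 72 h the libraries were at 629, 360 and 308 TPM and overlapped the non-exposed ones. The ratio of g246 to g244, given with no test, was 0.524 ± 0.248 in non-exposed Short animals and 0.149 ± 0.0178 at Short 9 h (SD, n = 3 each). In Long it was 0.480 ± 0.151 without exposure, 0.132 ± 0.0482 at 18 h and 0.794 ± 0.455 at 72 h. The 72 h ratios, 0.411 to 1.30, overlapped the non-exposed ones, 0.325 to 0.627, and those at Long 24 h ran from 0.130 to 1.17.

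The founding gene of the set, g12777, was high early and lower later in the Short course. Its TPM was 364, 218 and 227 in non-exposed libraries, 479, 337 and 407 at 1 h, 347, 383 and 350 at 2 h and 443, 329 and 416 at 3 h. At 4 h it was 210, 262 and 208, so that every library from 1 to 3 h exceeded every library from 4 to 12 h; the nearest values were 329 and 324 TPM. Against non-exposed animals the change at 1 h was 0.62 ± 0.24 on the log2 scale (limma, adjusted p = 0.151). Its lowest Long libraries were at 24 h, 44.7, 65.3 and 117 TPM, all below the non-exposed 272, 308 and 192. That change was -1.83 ± 0.56 (adjusted p = 0.181), and at 18 h the replicates were far apart, at 80.0, 428 and 72.5 TPM.

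The remaining members had no change past the test. The transcript g779 was 280, 141 and 202 TPM in non-exposed Short libraries and 343, 340 and 295 at 1 h, 381, 314 and 357 at 2 h, and 313, 400 and 335 at 3 h, all above the non-exposed ones. Its log2 changes there were 0.70, 0.80 and 0.80, each ± 0.28 (limma, adjusted p of 0.168, 0.212 and 0.192). The largest Short change, at 6 h, was 0.84 ± 0.28 (adjusted p = 0.117), again without overlap. By mean TPM g779 was lowest over the Long course at 36 h, with 122, 79.6 and 136 TPM against 311, 242 and 189. The log2 change there was -1.14 ± 0.40 (limma, adjusted p = 0.147, and 0.0200 without Long 24 h replicate 1). That change passed in 1 of 21 limma fits with 1 Long library left out, with adjusted p up to 0.427. On the log2 scale 24 h was slightly lower, at -1.17 ± 0.40 (adjusted p = 0.250), with 44.0, 171 and 162 TPM.

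The low-level run member g243 was nearly identical across non-exposed Long libraries, at 77.4, 78.6 and 79.1 TPM. It stood at 259, 109 and 161 TPM at 12 h and 238, 215 and 145 at 18 h, above them in all 6. The change at 18 h was 1.30 ± 0.48 on the log2 scale (limma, adjusted p = 0.216, and 0.0227 without Long 24 h replicate 1). That was the 1 of 21 fits with 1 Long library left out that passed, and adjusted p reached 0.394 in the others. One Short library, 6 h replicate 1, had only 6.52 TPM of g243 where its fellow replicates had 60.3 and 72.7. The last run member, g245, ranged from 72.3 to 318 TPM and its groups overlapped the non-exposed ones at every time point of both courses.

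A moderated F test over all groups of a course (limma) asks whether a member differed anywhere in it. In the Short course g2856 (adjusted p = 0.000343) and g12777 (adjusted p = 0.0294) passed, 2 of 7 members beside 9.70% of all transcripts tested. Over Long groups g2856 (adjusted p = 0.00592) and g246 (adjusted p = 0.0476) passed, 2 of 7 beside 10.4%. The Long result of g246 was lost when any of 17 of the 21 Long libraries was left out, with adjusted p up to 0.116. That of g12777 in Short was lost in 6 of 27 such cases, with adjusted p up to 0.0729.

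A contrast added after the data had been seen compared later with earlier exposed groups inside each course, 4 to 12 h minus 1 to 3 h in Short and 36 to 72 h minus 12 to 24 h in Long. The study had reported shifts of the whole transcriptome at these same cuts in these libraries, so small p-values here are no independent finding. Of all 12088 transcripts, 3871 in Short and 4073 in Long had an unadjusted p under 0.05 (limma). In Short, log2 changes were -0.80 ± 0.11 for g2856 (limma, adjusted p = 4.11e-05), -0.72 ± 0.12 for g12777 (adjusted p = 0.000385) and -0.49 ± 0.14 for g246 (adjusted p = 0.0161). None of the 7 reached 2-fold, so 0 were called beside 2.44% of all transcripts, and 4 had an unadjusted p under 0.05. Of the others, g244 stood at 0.26 ± 0.12 (adjusted p = 0.151).

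In Long, the later groups were higher for g2856, by 1.62 ± 0.22 on the log2 scale (limma, adjusted p = 0.000215), and for g12777, by 1.06 ± 0.32 (adjusted p = 0.0254). These 2 of 7 calls stand beside 9.96% of all transcripts. The transcript g246 was higher by 0.92 ± 0.19 (adjusted p = 0.00349) and g244 lower, at -0.73 ± 0.21 (adjusted p = 0.0192), both under 2-fold. Without the exposed libraries that had many abundant transcripts at 0, g2856 (1.88), g246 (1.07) and g244 (-1.01) passed, and g12777 did not (0.66, adjusted p = 0.144). The call of g12777 was also lost without any 1 of 7 single Long libraries (lowest value 0.89, highest adjusted p = 0.0560), whereas g2856 passed in all 21 such fits.

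The courses were also compared directly. Between the sets of non-exposed animals, 0 of 7 members were called by limma beside 1.73% of all transcripts, and 1 member had an unadjusted p under 0.05. That member was g2856, at 148 TPM ± 36.4 in Long and 290 TPM ± 10.9 in Short with no overlap, a log2 difference of -1.001 ± 0.302 (adjusted p = 0.0718). At 12 h, the one time point in both courses, the change from non-exposed differed between Long and Short in 0 of 7 members beside 0.0414% of all transcripts, and 0 had an unadjusted p under 0.05. The largest of these differences was that of g779, -0.98 ± 0.49.

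Pearson correlations of log2(TPM + 1) over the libraries of a course describe how the members varied together. They carry no p here, since libraries of a group share their treatment and are not independent points. The same correlation over all 48 libraries after subtraction of each group's mean, called the within-group r, describes variation among replicates. Over all transcripts the median r with a member lay between -0.17 and 0.17 in either course.

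Within each course, the pair with the highest r joined a run member with a dispersed copy. For g246 and g2856, r was 0.69 in Short (Spearman rho 0.68), 0.81 in Long (rho 0.82) and 0.57 within groups (rho 0.50). Without the 2 libraries farthest from the median of g2856, r was 0.60, 0.71 and 0.50. By the mean of the Short and Long r, g2856 ranked 18th among the 12079 transcripts compared with g246, and g246 ranked 40th for g2856. In the plot of these transcripts, libraries high in g246 are high in g2856 in both courses.

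The same pair ran against g244. For g246 and g244, neighbours but one in the run, r was -0.63 in Short (rho -0.66), -0.76 in Long (rho -0.80) and -0.60 within groups (rho -0.56). Only 5 of 12079 transcripts had a lower mean r with g244 than g246 did, and 4 had a lower one than g2856. For g2856 and g244, r was -0.60 in Short, -0.80 in Long and -0.54 within groups. That within-group r was -0.39 without Long 24 h replicate 1. Taken by course, it was -0.19 over Short libraries and -0.69 over Long ones. For g246 and g244 the within-group r was -0.43 over Short libraries and -0.72 over Long ones, and -0.49 over all without Long 24 h replicate 1. When each course was scaled to a common median, the r with g244 over the Short course, group means kept, shrank to -0.26 for g246 and -0.36 for g2856. Without the libraries with many abundant transcripts at 0, r of g246 with g244 was -0.62, -0.89 and -0.48.

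**Figure D4:**
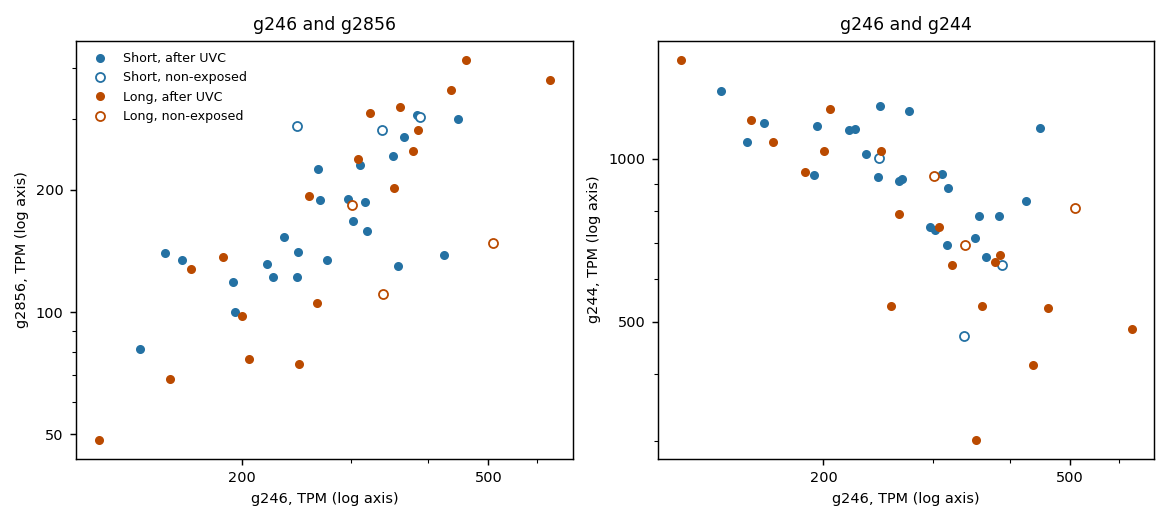
TPM of g2856 (left) and g244 (right) against g246, log axes, 1 point a library; Short in blue, Long in orange, open circles non-exposed. Over Short and Long libraries r on the log2 scale was 0.69 and 0.81 on the left and -0.63 and -0.76 on the right.

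Further pairs depended more on single libraries. For g244 and g779 r was 0.38 in Short, 0.66 in Long and 0.75 within groups. In Short it was 0.04 without the 2 libraries farthest from the median of g779 and 0.13 without Short non-exposed replicate 2 alone. Within groups it was 0.56 without Long 24 h replicate 1, in which both transcripts were at their lowest TPM. For g243 and g244 r was -0.02 in Short and 0.74 in Long, and the within-group r of 0.32 was -0.03 without Long 24 h replicate 1.

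The gene g12777 resembled its relatives only in part. With g2856, r was 0.60 in Short, 0.36 in Long and -0.03 within groups, and without the libraries with many abundant transcripts at 0 these were 0.60, 0.45 and 0.37. With g779 r was 0.46 in Short, 0.56 in Long and 0.38 within groups, which became 0.35, 0.18 and -0.05 under the same exclusion. With g246 r was 0.39 in Short, 0.52 in Long and 0.06 within groups, and 0.44, 0.63 and 0.29 under that exclusion. With g243, g244 and g245 the values lay between -0.20 and 0.14 in both courses.

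**Figure D5:**
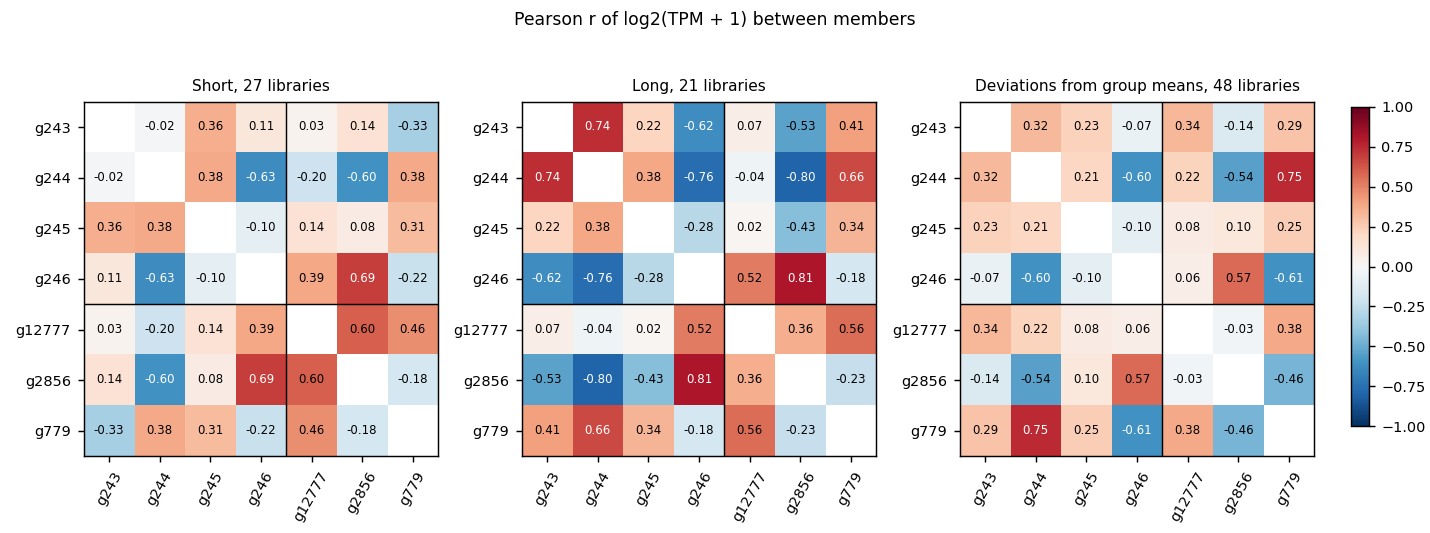
Pearson r of log2(TPM + 1) for all pairs of members over the 27 Short libraries, the 21 Long libraries and all 48 libraries after subtraction of group means; black lines part the run g243 to g246 from g12777, g2856 and g779. The highest r in both courses joins g246 and g2856 (0.69 and 0.81), across those lines, and g246 has r of -0.63 and -0.76 with g244 inside the run.

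The pairs inside the run were set against the other pairs. The 6 pairs inside the run had a median r of 0.05 in Short, ranging from -0.63 to 0.38, and of -0.03 in Long, from -0.76 to 0.74. The 12 pairs between the run and the dispersed copies had medians of 0.11, from -0.60 to 0.69, and 0.04, from -0.80 to 0.81. The 3 pairs of dispersed copies had medians of 0.46 and 0.36. Within groups the medians were 0.07, 0.16 and -0.03 for the same classes. In Long the run thus covered nearly the full span of r seen in the family, and in Short only its lower part. Of the run's 6 pairs, 3 were below 0 in each course. So were 33.3% (Short) and 41.7% (Long) of the pairs between the run and the dispersed copies. Among the pairs of dispersed copies it was 33.3% in each course. Over all pairs of tested transcripts with consecutive gene numbers it was 40.3% in Short and 41.1% in Long. A count over 6 pairs does not set the run apart from these.

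The 3 pairs of consecutive numbers inside the run were -0.02, 0.38 and -0.10 in Short and 0.74, 0.38 and -0.28 in Long for g243 with g244, g244 with g245 and g245 with g246. Over all 10203 pairs of tested transcripts with consecutive gene numbers, the median r was 0.07 in Short, with the middle 80% of pairs between -0.28 and 0.43. In Long it was 0.07 over 10194 pairs, between -0.34 and 0.51. Of these neighbour values only the Long r of g243 with g244 lay outside that range.

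The transcripts next to the run were expressed at lower levels, apart from g241, a member of another family that the study examined. From g239 to g250 without the run, mean TPM lay between 1.62 and 62.1 in both courses, while g241 had 196 ± 72.2 in Short and 279 ± 232 in Long. The transcript g242, between g241 and the run, was at 3.31 ± 9.31 TPM in Short. In the Long course g241 rose against non-exposed animals by 3.11 ± 0.30 at 36 h, 2.45 ± 0.30 at 48 h and 2.18 ± 0.30 at 72 h on the log2 scale (limma, adjusted p = 0.000112, 0.00118 and 0.00145). None of g243 to g246 did so. The r of g241 was 0.76 with g2856 in Long and -0.03 in Short, and -0.63 with g244 in Long and -0.11 in Short. Of the other transcripts beside the run, g249 fell at Long 72 h (-1.59 ± 0.46, adjusted p = 0.0340), the only other transcript called there against non-exposed animals.

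For each member the 3 transcripts with the highest mean of the Short and Long r were looked up, by likeness of pattern only. For g246 they were g1675, named secretory-abundant heat soluble protein 2 in the study's lists (mean r 0.89), g4663, named probable glutathione S-transferase 8 (0.86), and g6309, not listed there (0.83). Secretory-abundant heat soluble proteins are tardigrade proteins that stay soluble on heating, and glutathione S-transferases join glutathione to reactive compounds. For g2856 they were g7188 (0.88) and g671 (0.87), both without a Swiss-Prot match, and again g1675 (0.87). The 100 most alike transcripts of g246 and of g2856 had 59 in common, 59% of each list.

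Of the other members' lists, that of g12777 overlapped those of g246 and g2856 in part, and those of g779, g243, g244 and g245 had 0 transcripts in common with either. For g244 the leading transcripts were g4719 (mean r 0.80), g791 (0.79) and g1724, named after a tRNase Z (0.78). For g779 they were g12360 (0.79), g11662 (0.75) and g11049 (0.74). For g12777 they were g5900 (0.77), g1662 (0.74) and g13240 (0.74), and its 100 most alike shared 19 with those of g246 and 18 with those of g2856. Weaker leaders were found for g243, g10679 (0.62), g2238, named DnaJ homolog subfamily B member 2 (0.60), and g3310 (0.60). For g245 they were g2548.t2 (0.58), g4075 (0.57) and g13199 (0.56).

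Other antioxidant genes were taken from the names in the study's lists of regulated genes, 21 transcripts of 5 Cu-Zn superoxide dismutases, 2 peroxiredoxins, 6 thioredoxin-related transcripts and 8 glutathione S-transferases. Superoxide dismutases turn superoxide into hydrogen peroxide, and peroxiredoxins with thioredoxin remove it. Because the study drew those lists from these samples, their direction is not independent evidence. In Short, 1, 1, 0, 1, 3, 1, 1 and 2 of 21 were called higher at the successive time points. In Long, 0 of 21 were called higher at 12, 18 and 24 h, 3 at 36 h and 5 each at 48 h and 72 h, and 0 were called lower at any time. The peroxidase members had 4 of 56 comparisons called in Short, all of g2856 and all lower, and 0 of 42 in Long. Calls took in 0.778% to 3.15% of all transcripts at the Short time points and 0.190% to 10.6% at the Long ones.

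Single antioxidant transcripts reached the family's levels. The most abundant of each kind were the thioredoxin g11519 (mean of 1738 TPM over 48 libraries), the glutathione S-transferase g4017 (1470 TPM), the peroxiredoxin g6996 (937 TPM) and the superoxide dismutase g456 (282 TPM), beside 874 TPM for g244. The superoxide dismutase g456 went from 151 TPM ± 46.1 in non-exposed Long animals to 507 TPM ± 87.5 at 72 h, a log2 change of 1.77 ± 0.22 (limma, adjusted p = 0.00129). In the same contrast g6996 rose by 1.18 ± 0.21 (adjusted p = 0.00287) and g4017 by 1.28 ± 0.22 (adjusted p = 0.00271). The thioredoxin g11519 rose at Short 12 h, by 1.05 ± 0.25 (adjusted p = 0.0187). Over the 21 antioxidant transcripts the median r with g2856 was -0.02 in Short and 0.39 in Long, and with g244 it was 0.04 and -0.28.

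Summed levels of tissue markers and of another protein family also differed between groups, though 0 of 3 muscle transcripts and 0 of 1 yolk transcripts were called against non-exposed animals at any time point of either course. The summed level of 3 muscle transcripts was 313 to 668 TPM in non-exposed Long libraries, 76.6 to 612.2 at 24 h and 1119 to 1759 at 72 h. All 3 were called higher in later than in earlier Long groups. Vitellogenin g772, a yolk protein, was at 1996 to 2781 TPM in non-exposed Long libraries, 363 to 1313 at 18 h and 3713 to 7920 at 36 h, and was called higher in later than in earlier Long groups. The 7 heat-soluble protein transcripts summed to 3896 to 5189 TPM in non-exposed Long libraries, 2345 to 4544 at 18 h and 8702 to 13233 at 72 h. All 7 were called higher in later than in earlier Long groups, a call that took in 9.96% of all transcripts tested. Against non-exposed Long animals, 1 of the 7 was called higher at 36 h, 1 at 48 h and 3 at 72 h. These calls took in 1.39%, 5.12% and 10.6% of all transcripts. In Short, 1 was called higher at 1 h and 1 at 6 h, and 2 were called lower at 9 h and 1 at 12 h. There the calls took in 1.16%, 2.49%, 3.15% and 2.90% of all transcripts. The muscle, yolk and heat-soluble names came from the study's list of genes higher after both UVC and drying. Because that list was drawn in part from these samples, their direction is not independent evidence. In Short the muscle sum was 561 to 643 TPM without exposure and 357 to 448 TPM at 12 h. In whole animals fewer cells of a type and less RNA per cell cannot be told apart, and the part of these differences in the values of g2856, g246, g244 and g12777 was not tested.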

How the data were processed

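RNA from 30 whole animals per library was sequenced by the authors and quantified with kallisto with bias correction, and the deposited table holds the resulting TPM for 14532 transcripts in 48 libraries. TPM columns each sum to 1000000, so values are relative. The authors called differential expression with BWA and DESeq2 on counts that were not used here. By the study's methods, 3 of the samples of each condition were chosen by RNA integrity. Reads shared by similar copies are split by estimation.

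Here, log2(TPM + 1) of the 12088 transcripts with a mean of at least 1 TPM was fitted with limma 3.58.1 in R 4.3.3 (empirical Bayes with trend, all groups of a course in 1 fit, both courses for contrasts between them), checked on simulated data. Benjamini-Hochberg adjustment ran over all transcripts of a comparison, and calls needed an adjusted p under 0.05 and a 2-fold change. The labels do not say whether replicates came from separate cultures, so p-values measure only the spread between these samples. By the methods, animals irradiated together were sampled over a course, so time points may share a lot. Shares and correlations (Python 3.11.15) have no test.

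The transcripts named were all 7 members, those from g239 to g250 where described, the 3 most alike to each member and the most abundant of each antioxidant class. Members and lists were chosen with earlier results of these data known. Alternatives covered pseudocounts of 0.1 and 5, filters, scaling, the replicate block, fits of only the groups compared, robust fits, sums over isoforms and each library left out. The contrast of later with earlier groups and the exclusion of libraries with over 150 abundant transcripts at 0 were added after the data had been seen. No genome sequence or coordinates matching these gene numbers were used here.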

Additional observations from a re-analysis of the deposited data

How the results depend on the processing

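Member calls against non-exposed animals in Short (4) were 2 when only the groups compared were fitted (g2856 at 6 and 9 h), and 3 to 7 with 1 library left out. In Long (0) they were 1 under quantile normalization, 2 with the replicate number as a block, 5 without the exposed libraries that had over 150 abundant transcripts at 0, and 0 to 5 with 1 library left out. The same exclusion gave 1 call (g2856) between the non-exposed sets. Members past the F test in Long (2) were 1 with no filter, with median scaling and with quantile normalization, 5 under that exclusion, and 1 to 4 with 1 library left out; in Short (2) they were 1 to 3. With no fold threshold, later against earlier groups gave 3 members in Short and 4 in Long, and leaving out 1 library gave 1 to 2 in Long. Deviations of same-numbered libraries had a mean correlation of 0.00088 in Short and -0.011 in Long, with 3 of 108 and 1 of 63 over 0.1. These correlations over all transcripts cannot exclude that same-numbered libraries share a lot. With the replicate block the calls gained were g2856 at Long 48 and 72 h (adjusted p = 0.0273 and 0.0258), and no other call changed. Some correlations changed sign. That of g779 with g246 in Short was 0.12 under median scaling, and that of g12777 with g779 within groups was -0.049 without the libraries with over 150 abundant transcripts at 0. That of g243 with g244 within groups was -0.027 to 0.56 with 1 library left out. The cause of these shifts was not tested. Depth was not taken into account, which limits what can be said of the low values.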
